A study of Mus musculus and Homo sapiens with 14 samples.

Results

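The genes of the cytosolic ribosome's own proteins were followed across 14 RNA-seq libraries of plasma cells, plasma cell tumour lines and B cells. Members were the symbols of the count tables that begin with Rpl or Rps and a digit, together with Rplp0, Rplp1, Rplp2 and Rpsa, and the same names in capitals in the human table. Pseudogene-named entries, the Rps6k kinases and Rps27l were left out. The rule gave 89 of 26221 mouse genes and 91 of 27945 human genes. Of these, 77 in each species were core ribosomal proteins and 76 core symbols occurred in both. The other mouse entries were 11 paralogues and Rps19bp1, a binding partner of Rps19. The other human entries were 9 paralogues, 3 readthrough entries that join a ribosomal protein gene to its neighbour, RPS19BP1 and an antisense RNA of RPL34.

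The study examined IRF4, a transcription factor of the B-cell lineage, in plasma cells. Splenic plasma cells of donor genotype Irf4 flox/- (2 libraries) were set against those of genotype Irf4 flox/+ (2 libraries). Bone marrow of either genotype had been given, mixed with uMT marrow that makes no mature B cells, to hosts with a different congenic marker. Both groups received tamoxifen on days 1, 2, 7 and 8, and spleens were taken on day 14. The labels name no Cre driver. MPC-11, a mouse plasmacytoma line, and MM.1S, a human myeloma line, carried Cas9 with a guide RNA against Irf4 (2 libraries per line, genotype given as Irf4 -/-) or with an empty vector (2 libraries per line, genotype WT). Both arms were treated with doxycycline and sorted at day 3. Plasma cells from bone marrow and follicular B cells from spleen of WT mice had 1 library each. The mouse strain label reads C57BL/6, for MPC-11 too. The labels do not say whether paired libraries came from separate animals or cultures, whether animals were pooled or whether the lines were clones, so the p-values measure only the spread between these libraries, which may be technical.

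Libraries held 18738283 to 27003585 counts in mouse and 19317115 to 21572315 in human. Libraries of 1 group differed by more than counting error, with a chi-square per degree of freedom of 13.3 to 192 over the members. Irf4, the targeted gene, had 172 and 89.2 CPM in guide MPC-11 libraries, against 296 and 302 CPM in empty vector libraries. IRF4 had 141 and 190 CPM in guide MM.1S libraries, against 494 and 433 CPM in empty vector libraries. In splenic plasma cells Irf4 had 133 and 159 CPM in flox/- libraries, against 179 and 86.9 CPM in flox/+ libraries, so the groups overlapped there; gene counts do not show which exons were deleted. CPM here is the count scaled to library size, with the TMM factor that corrects for library composition. Plasma cell markers summed to 8200 to 98011 CPM in plasma cells and MPC-11, and to 398 CPM in follicular B cells. Most of the sum in plasma cells and MPC-11 was Jchain. Another of these markers, Mzb1, had 0.473 to 3.34 CPM in MPC-11, against 1448 to 2889 CPM in splenic plasma cells. The 8 B-cell markers summed to at most 2.85 CPM in MPC-11, with 6 or 7 of them at 0.

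A ribosome is built from a small subunit, which reads the mRNA, and a large subunit, which forms peptide bonds. In vertebrates the mRNAs of nearly all ribosomal proteins begin with a pyrimidine tract, the 5′ terminal oligopyrimidine motif, through which mTOR signalling sets their translation together. Plasma cells secrete antibody at a high rate and depend on this machinery. Many ribosomal protein genes have left processed pseudogenes in mammalian genomes, so short reads from them can match several places.

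Promoter sequences are shown for 5 genes that the results below turn on, because the pyrimidine tract lies at the transcription start. Each runs from 30 bases before the RefSeq start (GRCm38.p6) to 20 bases from it on, 5′ to 3′ on the gene's strand. Capitals mark the longest run of at least 8 C or T within 20 bases of the start, or the first where runs are equally long, as in Rpl39. Rpl34 has another start window, chr3:130730379-130730428, not printed, with a run of 8 bases.
Rps27, chr3:90213629-90213678, minus strand: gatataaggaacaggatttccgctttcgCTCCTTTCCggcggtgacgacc
Rps27rt, chr9:114982720-114982769, minus strand: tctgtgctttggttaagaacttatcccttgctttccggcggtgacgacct
Rpl34, chr3:130730318-130730367, minus strand: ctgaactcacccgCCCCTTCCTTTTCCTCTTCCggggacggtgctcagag
Rpl36al, chr12:69184048-69184097, minus strand: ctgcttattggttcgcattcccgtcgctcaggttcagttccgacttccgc
Rpl39, chrX:37085203-37085252, minus strand: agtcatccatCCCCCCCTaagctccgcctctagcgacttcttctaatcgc
RefSeq promoters matched 67 of the 89 mouse member genes, with 78 start windows. Such a pyrimidine run was present in 31 windows, or 39.7%, against 16.05% of all 32851 windows. In the 300-base promoters, searched on both strands, the ETS core CCGGAAG occurred in 33.3% of member windows against 8.86% of all windows. The interferon-stimulated response element, taken as GAAA, any 2 bases and GAAA, is a motif of IRF proteins and occurred in 8.97% of member windows against 3.44% of all windows. The Ets-IRF composite element, taken as GGAA, any 2 bases and GAAA, is bound by IRF4 with an ETS partner and occurred in 1 member window, that of Rpl37 (1.28%, against 2.72% of all windows). The last 2 motifs can overlap each other, and CCGGAAG can overlap the Ets-IRF element. A match describes letters in a window and not a binding site.

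Coding sequence is shown for pairs whose counts the results compare. The first 90 coding bases of Rps27 and of its retrocopy Rps27rt were the same, as were all 255 coding bases.
Rps27 and Rps27rt: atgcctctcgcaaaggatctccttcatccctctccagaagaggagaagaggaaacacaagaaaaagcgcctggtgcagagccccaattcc
The X-linked Rpl36a and its autosomal paralogue Rpl36al had coding sequences of 321 bases with 87.9% identity. In their first 90 bases, capitals mark the 14 bases that differ.
Rpl36a: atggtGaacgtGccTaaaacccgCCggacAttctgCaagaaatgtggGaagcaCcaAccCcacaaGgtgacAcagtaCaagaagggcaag
Rpl36al: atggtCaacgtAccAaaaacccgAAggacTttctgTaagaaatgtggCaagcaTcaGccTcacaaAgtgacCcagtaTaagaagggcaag

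Within a cell type, the measured levels of ribosomal protein genes were far from equal. How reads that match several places were counted is not given, and its part in these levels was not tested. On the deposited log2 FPKM scale, which sets counts per gene length, the median of the 77 core mouse genes was 4.87 in flox/- and 4.98 in flox/+ splenic plasma cells. It was 5.81 in guide and 5.82 in empty vector MPC-11 cells, 4.55 in bone marrow plasma cells and 5.80 in follicular B cells. The median of all 14704 genes in those tables lay between 2.31 and 2.43. In MM.1S the core median was 7.34 in guide and 7.26 in empty vector cells. Core genes within a mouse group spanned between 8.61 and 11.8 log2 units, and in MM.1S between 13.4 and 13.5. Rpl41, which encodes a very short basic peptide of the large subunit, and Rps14, a protein of the small subunit's platform, were among the 5 highest core genes and paralogues of each mouse group. Rpl41 had a log2 FPKM level of 10.60 and 11.88 in guide MPC-11 libraries, against 12.48 and 11.20 in empty vector libraries. Rps14 had 9.64 and 9.21 in flox/- splenic libraries, against 9.72 and 9.78 in flox/+ splenic libraries. Rpl36al was among the 5 highest in flox/+ splenic plasma cells (9.57) and bone marrow plasma cells (8.95), and Rps27rt was the highest in follicular B cells (10.67). In MM.1S the highest were RPL8, of the large subunit (10.80 in guide and 10.66 in empty vector cells), and RPLP1, of the acidic stalk (10.72 and 10.63). RPL36A was lowest there, at -2.58 in guide and -2.81 in empty vector cells; the readthrough entry that joins RPL36A to its neighbour had 0 counts in each of the 4 libraries. The median of small-subunit genes lay above that of large-subunit genes in each of the 8 groups.

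**Figure D1:**
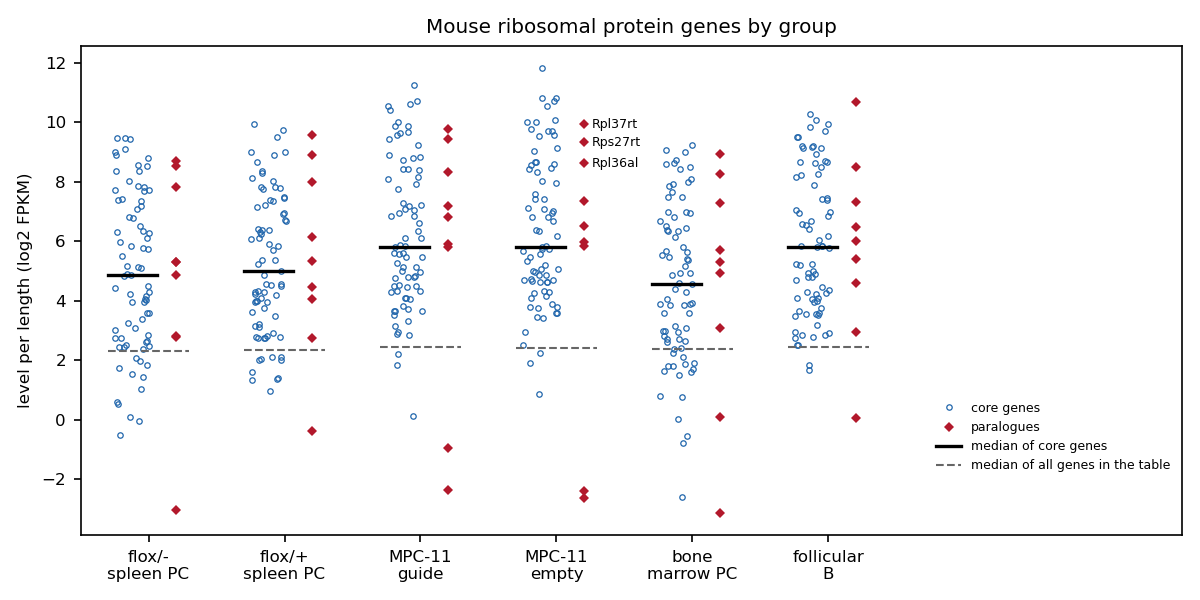
Level per length (log2 FPKM, group means) of each mouse core ribosomal protein gene (circles) and paralogue (diamonds) in 6 groups, with the median of core genes (thick line) and of all genes in the deposited tables (dashed line). The core median lies between 4.55 and 5.82, above the all-gene medians of 2.31 to 2.43. The paralogues Rps27rt, Rpl37rt and Rpl36al lie above the core median in each group.

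The order of the core genes by level was alike between mouse groups and differed more between the mouse and the human line. Across the 77 core genes Spearman's rho was 0.988 between flox/- and flox/+ splenic plasma cells, 0.996 between guide and empty vector MPC-11 cells and 0.966 between plasma cells of the bone marrow and follicular B cells. It was 0.875 between MPC-11 and flox/+ splenic plasma cells, and 0.273 between MPC-11 and MM.1S over the 76 shared symbols. These describe genes, which share libraries and are not independent replicates. Core genes that share sequence with more pseudogenes tended to have lower levels. Of the core genes, 76 shared at least 1 stretch of 50 bases with an annotated pseudogene (GENCODE M21), and the median gene shared with 9. The rho between level and number of such pseudogenes was -0.44 to -0.61 over the 6 mouse groups, between level and the share of words found in other genes -0.29 to -0.35, and between level and transcript length -0.05 to -0.11. How the counting treated reads that match several places is not given in the sources used here, and its part in the order was not tested.

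Paralogue entries took much of the counts in some pairs. Rps27rt held 93.2% to 96.7% of the counts of Rps27 and Rps27rt over the 10 mouse libraries, and Rpl37rt held 92.4% to 96.9% of those of Rpl37 and Rpl37rt. Because the coding sequences of Rps27 and Rps27rt are the same, the division of reads between them is uncertain. The coding sequences of Rpl36al and Rpl36a differ, but 85.5% of the words of Rpl36a were found in other genes, against 22.1% for Rpl36al. The part of this in the pair's division was not tested. Rpl36al held 97.9% and 97.4% of the pair's counts in flox/- splenic libraries, against 99.3% and 99.5% in flox/+ libraries. It held 90.7% to 92.9% in MPC-11, and 99.4% in bone marrow plasma cells against 95.1% in follicular B cells. Rpl22l1, the paralogue of the RNA-binding protein Rpl22, held 19.6% to 25.4% of its pair in MPC-11 and 10.03% to 17.2% in the other mouse libraries. Rpl3l, a muscle-enriched paralogue of Rpl3, had 0 counts in each of the 10 mouse libraries.

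Ribosomal protein genes together took a small part of each library. In flox/- against flox/+ cells, and in follicular B against bone marrow plasma cells, that part was larger and the immunoglobulin part smaller. In flox/- splenic plasma cells the members held 0.382% and 0.328% of counts, against 0.212% and 0.193% in flox/+ cells. These groups did not overlap, and the ratio of their means was 1.75. Immunoglobulin genes held 58.8% and 55.4% of counts in flox/- libraries, against 75.6% and 77.2% in flox/+ libraries. With immunoglobulin counts left out of the total, the members held 0.929% and 0.737% in flox/- libraries, against 0.870% and 0.846% in flox/+ libraries, which overlapped, with a ratio of means of 0.971. In MPC-11 the members held 1.05% and 1.78% of counts in guide libraries, against 1.91% and 1.46% in empty vector libraries. In MM.1S they held 2.14% and 1.78% in guide libraries, against 1.65% and 1.97% in empty vector libraries. Both lines' groups overlapped. Bone marrow plasma cells had 0.182% (95% exact binomial interval 0.180% to 0.184%, for counting error only), against 1.37% in follicular B cells (1.36% to 1.37%). Immunoglobulin genes held 72.0% of counts in bone marrow plasma cells, against 3.25% in follicular B cells. Without them the members held 0.650% in bone marrow plasma cells, against 1.41% in follicular B cells, which moved the ratio of shares to 0.460 in place of 0.133. In these bulk libraries, fewer cells of a type and less RNA per cell cannot be told apart.

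**Figure D2:**
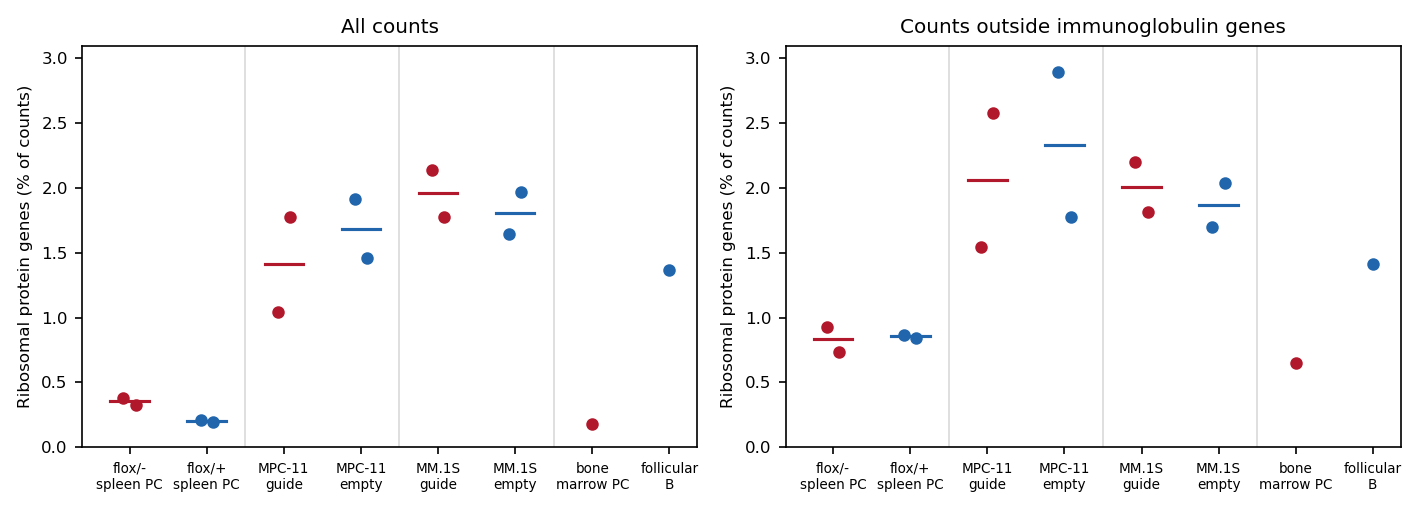
Share of counts (%) in ribosomal protein genes, with each point a library and each line a group mean, over all counts (left) and over counts outside immunoglobulin genes (right). The flox/- points lie above the flox/+ points on the left and on both sides of them on the right.

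The splenic comparison asks what the transcripts did when plasma cells carried the floxed Irf4 allele over a null allele in place of a wild-type allele. No ribosomal protein gene passed the test. Rpl36al had the lowest fold change and Rpl13 the highest, and the medians of both subunits stood close to that of all genes. Of 85 members tested with edgeR's quasi-likelihood test, 0 were called at an adjusted p under 0.05, beside 0% of all 11887 genes tested. At an unadjusted p under 0.05 it gave 1 lower and 0 higher member (3.85% lower and 8.63% higher among all genes). DESeq2 and limma on the log2 FPKM values called 0 members, where DESeq2 called 3.63% of all genes higher and 1.69% lower. The filter on low counts removed Rpl10l, Rpl23a, Rpl39l and Rpl3l. The median log2 fold change of the members was 0.12, beside 0.09 for all genes. By library size alone these medians were 0.97 and 0.98. With TMM scaling it was 0.16 for 45 core large-subunit genes, 0.09 for 31 core small-subunit genes and -0.17 for 8 paralogues. Libraries did not overlap between the groups for 14 members with higher and 11 with lower values in flox/- cells, beside 25.7% and 18.3% of all genes.

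The acidic stalk recruits the elongation factors to the large subunit. Its base, Rplp0, had 207 and 190 CPM in flox/- libraries, against 235 and 249 CPM in flox/+ libraries. Without overlap, the log2 fold change was -0.29 ± 0.29 (SE), and 0.61 by library size alone. Rplp1 had 73.3 and 44.8 CPM in flox/- libraries, against 63.9 and 59.3 CPM in flox/+ libraries. Rplp2 had 10.4 and 4.83 CPM in flox/- libraries, against 8.19 and 9.16 CPM in flox/+ libraries. For Rplp1 and Rplp2 the flox/- libraries lay on both sides of the flox/+ libraries.

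In the small subunit, Rps3, which sits where mRNA enters, had 211 and 194 CPM in flox/- libraries, against 254 and 213 CPM in flox/+ libraries. Both flox/- values lay below the flox/+ values, by a narrow margin (log2 fold change -0.21). By library size alone it was 0.67, and on log2 FPKM the groups overlapped. Rps19, whose human gene is mutated in Diamond-Blackfan anaemia, had 57.2 and 32.3 CPM in flox/- libraries, against 34.7 and 36.7 CPM in flox/+ libraries. Rps6, the substrate of the S6 kinases, had 5.10 and 3.29 CPM in flox/- libraries, against 3.45 and 1.75 CPM in flox/+ libraries. Rps19 and Rps6 overlapped between the groups. Rps14 had 154 and 111 CPM in flox/- libraries, against 172 and 207 CPM in flox/+ libraries, without overlap. Its log2 fold change was -0.52, and 0.37 by library size alone.

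In the large subunit, Rpl5 and Rpl11, which bind 5S rRNA and can hold Mdm2, were scarce. Rpl5 had 3.495 and 0.753 CPM in flox/- libraries, against 1.29 and 0.688 CPM in flox/+ libraries. Rpl11 had 2.50 and 1.76 CPM in flox/- libraries, against 1.81 and 1.53 CPM in flox/+ libraries. Both genes overlapped between the groups. Rpl13 had the highest fold change of the members, with 2.04 and 1.66 CPM in flox/- libraries, against 0.936 and 0.582 CPM in flox/+ libraries. Its log2 fold change of 1.28 ± 0.97 had an adjusted p of 0.729 with edgeR.

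Rpl36al (chr12:69182734-69184067, mm10) had 74.0 and 49.6 CPM in flox/- libraries, against 125 and 154 CPM in flox/+ libraries. Both flox/- values lay below both flox/+ values. Its log2 fold change was -1.18 ± 0.34, with a p of 0.0163 and an adjusted p of 0.286 in edgeR and an adjusted p of 0.0573 in DESeq2. Scaled by library size alone it was -0.30. Its X-linked relative Rpl36a had 1.61 and 1.32 CPM in flox/- libraries, against 0.819 and 0.847 CPM in flox/+ libraries, a log2 fold change of 0.81 that did not pass either.

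After Rpl36al, the lowest members without overlap were Rps21, Rpl41, Rpl32l and Rps14. Rps21, a small protein of the small subunit, had 6.495 and 3.70 CPM in flox/- libraries, against 7.95 and 7.73 CPM in flox/+ libraries. Rpl41 had 125 and 83.0 CPM in flox/- libraries, against 166 and 153 CPM in flox/+ libraries (log2 fold change -0.62 ± 0.33). These differences did not pass the test. Scaled by library size alone, the log2 fold changes were 0.24 for Rps21 and 0.25 for Rpl41, beside a median of 0.98 for all genes. After Rpl13, the highest without overlap were Rpl17, Rpl36a, Rpl39 and Rpl31, each at or below 2.17 CPM in every library. Rpl17, which like Rpl31 lies by the exit of the peptide tunnel, had 1.21 and 1.69 CPM in flox/- libraries, against 0.819 and 0.741 CPM in flox/+ libraries (log2 fold change 0.89). Rpl39 had 0.371 and 0.314 CPM in flox/- libraries, against 0.175 and 0.212 CPM in flox/+ libraries, from 22 counts in flox/- and 7 counts in flox/+ cells. Differences of genes with such low counts rest on few reads. On log2 FPKM Rpl39 was lower in flox/- libraries (0.20 and -0.28, against 0.59 and 2.22 in flox/+ libraries). Rpl17, Rpl36a and Rpl31 overlapped on that scale, while Rpl13 stayed higher in flox/- libraries (2.52 and 2.35, against 1.90 and 2.08). Rpl3 had 15.6 and 11.8 CPM in flox/- libraries, against 11.1 and 7.73 CPM in flox/+ libraries. Rpsa had 64.5 and 45.4 CPM in flox/- libraries, against 57.1 and 42.9 CPM in flox/+ libraries. Rps2 had 28.2 and 24.8 CPM in flox/- libraries, against 30.004 and 23.4 CPM in flox/+ libraries. Rpl22 had 19.1 and 6.59 CPM in flox/- libraries, against 9.83 and 15.2 CPM in flox/+ libraries, and Rpl22l1 had a log2 fold change of -0.28. Rpl3 was higher in both flox/- libraries by a narrow margin, while Rpsa, Rps2 and Rpl22 overlapped between the groups.

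In MPC-11 the ribosomal protein genes did not separate guide from empty vector cells. edgeR called 0 of 85 members, beside 0.0187% of all 10670 genes, and 0 members had an unadjusted p under 0.05, beside 3.49% of all genes higher and 2.56% lower. DESeq2 and limma on the log2 FPKM values also called 0, where DESeq2 called 1.03% of all genes higher and 0.469% lower. The filter removed Rpl10l, Rpl39l, Rpl3l and Rps4l. The median log2 fold change was -0.16, beside -0.02 for all genes, with 27 members above 0 and 58 below. Values did not overlap for 5 members that were lower and 0 that were higher in guide cells, beside 16.5% and 16.9% of all genes.

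Those 5 were large-subunit proteins, with Rpl34 the furthest from 0. Rpl34 had 114 and 130 CPM in guide libraries, against 257 and 137 CPM in empty vector libraries. The log2 fold change, -0.69 ± 0.37, had an adjusted p of 0.972 in edgeR. Rpl3, which lies close to the peptidyl transferase centre, had 18.8 and 22.2 CPM in guide libraries, against 25.9 and 29.5 CPM in empty vector libraries. Rpl31, at the exit of the peptide tunnel, had 4.75 and 6.97 CPM in guide libraries, against 8.19 and 8.88 CPM in empty vector libraries. Rpl27a and Rpl26, the last of which lies near the same exit, had log2 fold changes of -0.27 and -0.20.

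For the more abundant members one library of each arm was high and the other low. Rps3 had 730 and 1356 CPM in guide libraries, against 1956 and 708 CPM in empty vector libraries. Rplp0 had 384 and 633 CPM in guide libraries, against 804 and 476 CPM in empty vector libraries. Rpsa, a small-subunit protein also known as a laminin receptor precursor, had 245 and 408 CPM in guide libraries, against 549 and 265 CPM in empty vector libraries. In each of these 3 genes guide library 2 and empty vector library 1 stood above their partners. Rpl36al had 101 and 194 CPM in guide libraries, against 206 and 138 CPM in empty vector libraries, which overlapped. Rps6 had 7.51 and 8.55 CPM in guide libraries, against 8.88 and 4.61 CPM in empty vector libraries. Rpl5 had 3.69 and 7.76 CPM in guide libraries, against 6.83 and 4.35 CPM in empty vector libraries. Rpl11 had 4.75 and 8.04 CPM in guide libraries, against 9.22 and 5.26 CPM in empty vector libraries. For Rps6, Rpl5 and Rpl11, too, the arms overlapped. Rpl21 had the lowest log2 fold change of all members tested, -1.17 ± 1.38, from 23 counts in guide and 59 counts in empty vector cells.

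In human MM.1S cells, RPL13A came closest to a change and the members as a whole stayed near the middle of all genes. edgeR called 0 of 83 members, beside 0.00788% of all 12696 genes, and gave 1 member a higher and 0 a lower value at an unadjusted p under 0.05, beside 5.42% and 4.58% of all genes. limma on the log2 FPKM values called 0 members and DESeq2 called 1, RPL13A, beside 1.52% of all genes called higher and 1.4% called lower by DESeq2. The filter removed 8 entries, namely RPL10L, RPL3L, the Y-linked RPS4 copies, the RPL34 antisense RNA and the 3 readthrough entries. The median log2 fold change was 0.07, beside 0.01 for all genes, with 51 members above 0 and 32 below. Values did not overlap for 12 members higher and 3 lower in guide cells, beside 22.4% and 18.9% of all genes.

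RPL13A, a large-subunit protein that in human monocytes also joins a complex silencing inflammatory mRNAs, had 216 and 169 CPM in guide libraries, against 119 and 96.1 CPM in empty vector libraries. Both guide values lay above both empty vector values. The log2 fold change, 0.84 ± 0.23, had an adjusted p of 0.319 in edgeR and 0.0301 in DESeq2. RPS2, of the small subunit, had 272 and 202 CPM in guide libraries, against 181 and 158 CPM in empty vector libraries (log2 fold change 0.48 ± 0.22, adjusted p 0.554 in edgeR). RPL3 had 1346 and 1097 CPM in guide libraries, against 1028 and 807 CPM in empty vector libraries. RPS3 had 906 and 763 CPM in guide libraries, against 661 and 642 CPM in empty vector libraries. RPS2, RPL3 and RPS3 did not overlap between the arms. The other members without overlap and higher in guide cells included RPL5, RPL18, RPL15, RPSA, RPS18, RPS6 and RPL36A, and those lower were RPL41, RPL23 and RPL7L1. RPLP0 had 501 and 423 CPM in guide libraries, against 392 and 477 CPM in empty vector libraries, which overlapped. RPL41 had 19.4 and 18.8 CPM in guide libraries, against 19.8 and 26.4 CPM in empty vector libraries (log2 fold change -0.28). RPL23, which binds the p53 regulator MDM2, had 126 and 122 CPM in guide libraries, against 148 and 147 CPM in empty vector libraries (-0.25). RPL7L1, a relative of RPL7, had 71.2 and 73.5 CPM in guide libraries, against 76.1 and 94.9 CPM in empty vector libraries (-0.24). None of these 3 passed the test. RPL5 had 253 and 227 CPM in guide libraries, against 177 and 226 CPM in empty vector libraries. RPL11 had 242 and 195 CPM in guide libraries, against 175 and 211 CPM in empty vector libraries. RPS6 had 345 and 298 CPM in guide libraries, against 236 and 292 CPM in empty vector libraries. RPL5 and RPS6 lay higher in guide cells by a narrow margin, while RPL11 overlapped. RPL36AL had 106 and 107 CPM in guide libraries, against 102 and 149 CPM in empty vector libraries, which overlapped too.

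**Figure D3:**
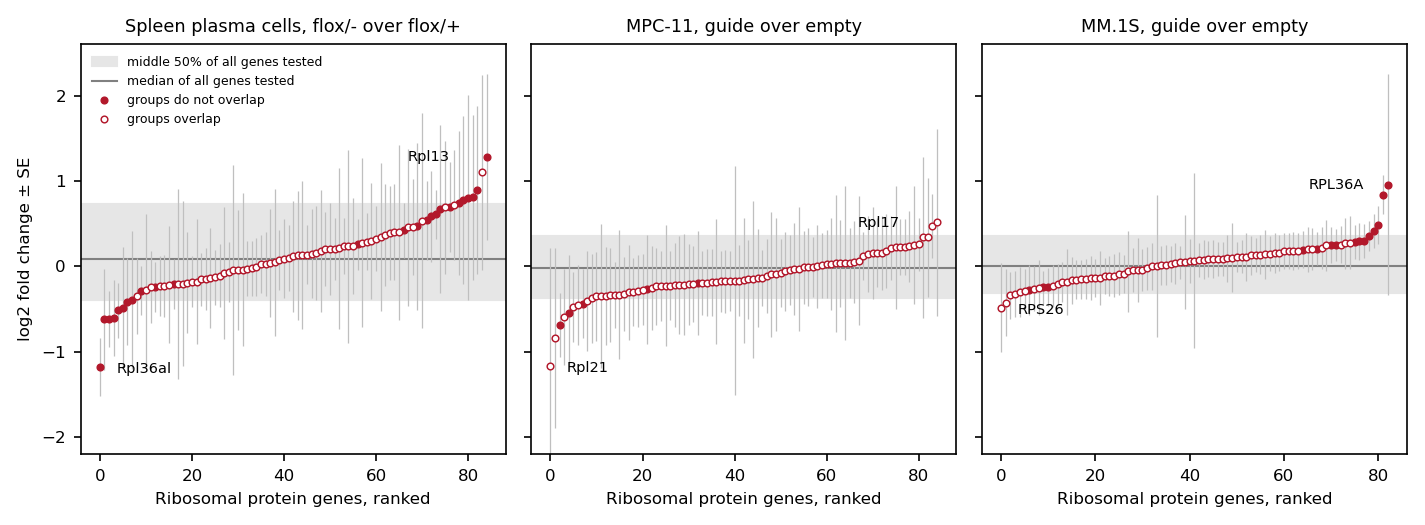
Log2 fold change with its SE for each ribosomal protein gene tested, ranked within the 3 IRF4 comparisons, beside the median and middle 50% of all genes tested. Filled points are members whose groups do not overlap (25 in splenic plasma cells, 5 in MPC-11 and 15 in MM.1S), and the members' medians are 0.12, -0.16 and 0.07.

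The effects of the 2 mouse models on the members were also compared directly. The difference of the log2 fold changes, MPC-11 minus splenic plasma cells, was called for 0 of 86 members and 0% of 12993 genes with edgeR. At an unadjusted p under 0.05 there were 0 members. The smallest adjusted p of a member was 0.9999. Mouse and human effects were not tested against each other.

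Between libraries of 1 group the ribosomal protein genes moved together, by more than the groups differed. With a pseudocount of 0.5 CPM, 74 of 85 members were higher in flox/- library 1 than in flox/- library 2, with a median log2 ratio of 0.52, against 0.01 for all genes. In guide MPC-11 cells 80 of 85 members were lower in library 1, with a median of -0.77 and 27 of them at least 2-fold lower. In empty vector MPC-11 cells 71 of 85 were higher in library 1, with a median of 0.53. In MM.1S the medians were 0.30 in guide and -0.34 in empty vector cells. The flox/+ pair, with a median of -0.05, was the exception. Member transcripts are short, with a median of 714 bases against 1949 for all genes. Among genes under 800 bases the median for flox/- library 1 over 2 was 0.59 for 49 members and 0.19 for 1221 other genes. For guide MPC-11 library 1 over 2 it was -0.85 for 50 members and -0.14 for 1140 other genes.

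Markers of other cells differed between the same splenic libraries. The summed level of 12 macrophage markers was 8241 and 783 CPM in flox/- libraries 1 and 2, with at most 1 of them at 0, against 583 and 235 CPM in flox/+ libraries, with at most 2 at 0. For 6 erythroid markers the sum was 852 and 46.5 CPM in flox/- libraries, against 44.0 and 4.87 CPM in flox/+ libraries. For 10 T-cell markers it was 195 and 538 CPM in flox/- libraries, against 15.2 and 29.98 CPM in flox/+ libraries. For 8 B-cell markers it was 444 and 716 CPM in flox/- libraries, against 235 and 246 CPM in flox/+ libraries, and for 8 NK-cell markers it was 55.9 and 134 CPM in flox/- libraries, against 14.8 and 21.9 CPM in flox/+ libraries. The macrophage, T-cell, B-cell, NK-cell and erythroid sums were higher in both flox/- libraries than in either flox/+ library. For 7 plasma cell markers it was 35955 and 33145 CPM in flox/- libraries, against 78307 and 98011 CPM in flox/+ libraries. Most of that sum was Jchain, with 31868 and 29086 CPM in flox/- libraries, against 69765 and 87916 CPM in flox/+ libraries. Jchain was also counted with the immunoglobulin genes. Xbp1, Sdc1, Tnfrsf17 and Mzb1 were lower in both flox/- libraries too, while Prdm1 and Irf4 overlapped between the groups. The part of all these markers in the members' values was not tested. In MPC-11, 10 of the 12 macrophage markers were at 0 in each of the 4 libraries.

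**Figure D4:**
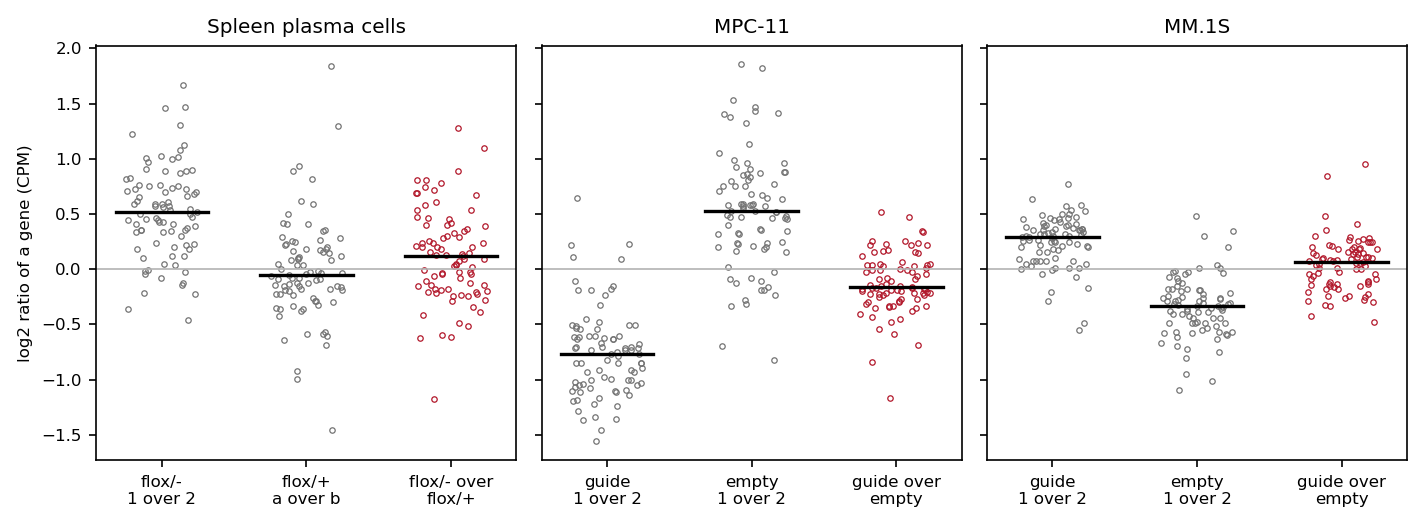
Log2 ratio of each ribosomal protein gene between the libraries of 1 group (grey, pseudocount 0.5 CPM) and the log2 fold change between groups (red), with medians as lines. The medians between MPC-11 libraries are -0.77 and 0.53, both further from 0 than the median of -0.16 between guide and empty vector cells.

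MPC-11 cells with an empty vector were set against splenic plasma cells that carry a wild-type Irf4 allele beside the floxed one. Most members were higher in MPC-11 cells, with a median log2 fold change of 1.31 beside -0.02 for all genes, and a few were far lower. edgeR called 25 of 86 members, 21 higher and 4 lower, beside 27.7% of all 11465 genes (12% higher and 15.6% lower). At an unadjusted p under 0.05 there were 42 higher and 6 lower members, beside 18% and 20.5% of all genes, and DESeq2 called 38 higher and 6 lower, beside 14.6% and 19.5%. Values did not overlap for 67 higher and 6 lower members, beside 33% and 33.5% of all genes. With edgeR the share called in either direction was near that of all genes, and by the other counts it was above it. By direction, each count gave a larger share higher and a smaller share lower among members than among all genes. The count rests on single libraries: edgeR called 3 members without MPC-11 library 1 and 19 without library 2, and 10 without flox/+ library a and 9 without library b. By library size alone the median was 3.16, beside 1.86 for all genes. The 2 groups differ in origin, culture, vector and drug, which cannot be told apart.

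Among the genes that rose were proteins of both subunits. Rpl39, which lines the peptide exit tunnel, had 5.29 and 2.82 CPM in MPC-11 libraries, against 0.236 and 0.310 CPM in splenic libraries (log2 fold change 3.87 ± 1.02, adjusted p 0.0370 in edgeR). Rpl13 had 11.3 and 9.95 CPM in MPC-11 libraries, against 1.26 and 0.853 CPM in splenic libraries (3.32 ± 0.77, adjusted p 0.0231 in edgeR). Rps27a, made as a fusion with ubiquitin, had 21.1 and 15.4 CPM in MPC-11 libraries, against 2.28 and 2.79 CPM in splenic libraries (2.85 ± 0.63, adjusted p 0.0185 in edgeR). These 3 genes had low counts in the splenic libraries. Rpl7, an abundant large-subunit protein, had 365 and 247 CPM in MPC-11 libraries, against 57.3 and 69.2 CPM in splenic libraries (2.27 ± 0.40, adjusted p 0.00815 in edgeR). Rpl4, whose loop reaches into the exit tunnel, had 957 and 763 CPM in MPC-11 libraries, against 223 and 224 CPM in splenic libraries (log2 fold change 1.94). The retrocopy Rpl37rt had 323 and 238 CPM in MPC-11 libraries, against 66.7 and 81.0 CPM in splenic libraries (1.93). Others that rose included Rpl36, Rps26, Rpl34, Rps7, Rps10, Rps15, Rpl32, Rps4x, Rps20, Rpl6, Rpsa, Rpl37a, Rpl8 and Rpl14, with log2 fold changes up to 2.39 (Rpl36).

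Of the 4 genes that fell, 3 share a stretch of sequence with many annotated pseudogenes and Rps4l is annotated as one. Rpl29 (chr9:106428889-106431568), a small basic protein of the large subunit, had 0.436 and 0.526 CPM in MPC-11 libraries, against 28.3 and 37.8 CPM in splenic libraries. This log2 fold change, -6.08 ± 0.55, had an adjusted p of 0.000982 in edgeR. Rpl21 (chr5:146832890-146837032), also of the large subunit, had 0.467 and 1.05 CPM in MPC-11 libraries, against 10.3 and 13.3 CPM in splenic libraries. This log2 fold change, -3.94 ± 0.79, had an adjusted p of 0.0155 in edgeR. Rps2 (chr17:24718121-24721927) had 11.8 and 9.30 CPM in MPC-11 libraries, against 40.4 and 34.3 CPM in splenic libraries. Its log2 fold change of -1.82 ± 0.46 had an adjusted p of 0.0284 in edgeR, and by library size alone it was 0.023. Rps4l (chr6:148354656-148355596), which RefSeq lists as a transcribed pseudogene, had 0 counts in both MPC-11 libraries, against 2.36 and 2.09 CPM in splenic libraries. With TMM scaling it was at least 54.9-fold lower in MPC-11, taking a floor of 3 counts over the group. Library size alone put the all-gene median at 1.86, and the bound was not computed on that scale.

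Rpl29 and Rpl21 each shared a 50-base stretch with 81 annotated pseudogenes and Rps2 with 71, while the 21 genes that rose shared with a median of 8 (range 1 to 27) and the 61 not called with a median of 8 (range 0 to 121). The share of a gene's 50-base words found in other genes ran the other way, with a median of 27.6% in those that fell, 38.3% in those that rose and 41.1% in those not called. The stretches of coding sequence found in most other genes are printed, since reads inside them cannot be placed by sequence alone. That of Rpl29 covers coding bases 211 to 260 and occurs in 32 other genes, and that of Rpl21 covers bases 96 to 145 and occurs in 44.
Rpl29: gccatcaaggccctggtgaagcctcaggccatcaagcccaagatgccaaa
Rpl21: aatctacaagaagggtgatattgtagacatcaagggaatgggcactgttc
Per length, Rpl29 stood at a log2 FPKM of 1.87 and 1.81 in guide and 1.84 and 1.95 in empty vector MPC-11 libraries. It stood at 7.26 and 6.33 in flox/- and 6.57 and 6.88 in flox/+ splenic libraries, at 6.45 in bone marrow plasma cells and at 6.95 in follicular B cells. All 4 MPC-11 libraries were thus below the 6 libraries of primary cells, and the guide and empty vector libraries overlapped. Whether reads were assigned elsewhere in MPC-11 was not tested.

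**Figure D5:**
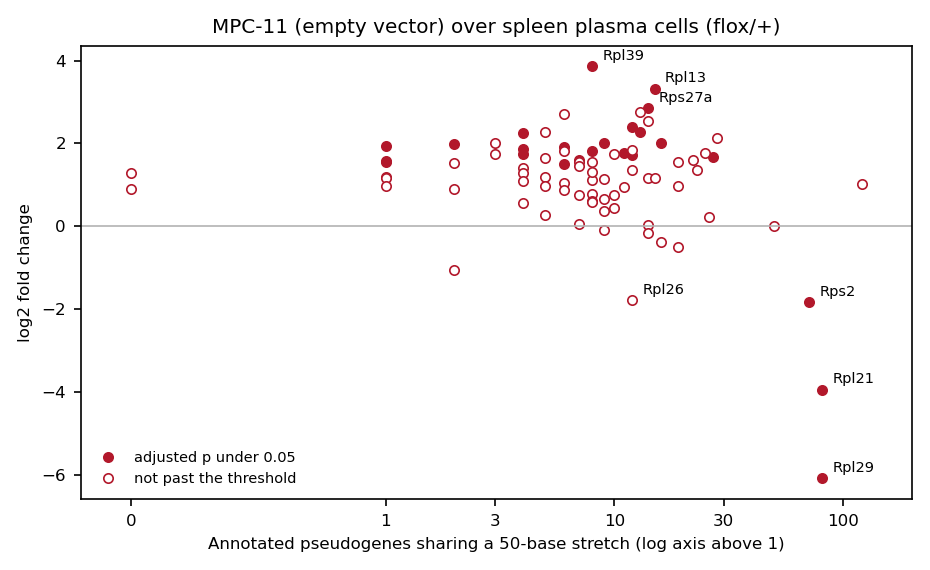
Log2 fold change of each ribosomal protein gene, empty vector MPC-11 over flox/+ splenic plasma cells, against the number of annotated pseudogenes that share a 50-base stretch with it (log axis above 1). Rps2, Rpl21 and Rpl29 lie at 71 to 81 pseudogenes with fold changes of -1.82 to -6.08, and Rps4l is not drawn because it had 0 counts in MPC-11.

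Other members did not pass. Rplp0 had 440 and 264 CPM in MPC-11 libraries, against 316 and 365 CPM in splenic libraries (log2 fold change 0.05). Rplp1 had 235 and 137 CPM in MPC-11 libraries, against 86.0 and 87.0 CPM in splenic libraries (1.10, without overlap, adjusted p 0.0975 in edgeR). Rpl36al had 113 and 76.5 CPM in MPC-11 libraries, against 168 and 225 CPM in splenic libraries. Its log2 fold change of -1.06 had an adjusted p of 0.102 in edgeR, with no overlap. DESeq2 called it lower (adjusted p 0.0321), and by library size alone it was 0.80.

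Bone marrow plasma cells were set against follicular B cells with 1 library each, so their difference has no replicate check. Among 42 members with at least 10 CPM in both, 41 were lower in bone marrow plasma cells, with a median log2 ratio of -1.11 beside -0.11 for 5724 genes. At least 2-fold lower were 23 members, beside 15.6% of all genes, and 1 was at least 2-fold higher, beside 15.3%. By library size alone the medians were -2.97 for members and -1.97 for all genes. The lowest ratio was that of Rps19, with 25.8 CPM in bone marrow plasma cells against 165 CPM in follicular B cells (log2 ratio -2.68, 95% counting interval -2.86 to -2.51). Rps27rt had 60.0 CPM in bone marrow plasma cells against 325 CPM in follicular B cells, and Rpl13a had 48.0 CPM against 166 CPM. Rpl37a, with 24.4 CPM against 96.2 CPM, and Rpl36, with 22.8 CPM against 85.6 CPM, completed the 5 lowest. Rplp0 had 340 CPM in bone marrow plasma cells against 415 CPM in follicular B cells, the next to highest ratio (-0.28). Rps19bp1 (-0.40), Rpl14 (-0.48) and Rpl6l (-0.56) followed it. Rpl36al alone stood higher, with 145 CPM in bone marrow plasma cells against 44.0 CPM in follicular B cells (log2 ratio 1.72, interval 1.62 to 1.82), and by library size alone its ratio was -0.14. The 7 neutrophil markers summed to 624 CPM in bone marrow plasma cells against 9.56 CPM in follicular B cells, and their part in the ratios was not tested.

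Other genes of the translation machinery were taken from lists by role. In each of the 3 IRF4 comparisons, edgeR called 0 of 79 ribosome biogenesis factors, 0 of 21 translation factors, 0 of 78 mitochondrial ribosomal proteins and 0 genes of the mTOR axis. The median log2 fold changes of the biogenesis factors were 0.24 in splenic plasma cells, 0.04 in MPC-11 and -0.11 in MM.1S. Those of the mitochondrial ribosomal proteins were -0.32, -0.25 and -0.18. Between MPC-11 and splenic plasma cells, 37 of 79 biogenesis factors rose and 0 fell, with a median of 1.54, where 12% of all genes were called higher and 15.6% lower. Rrp12, which exports pre-ribosomal subunits, had 43.4 and 112 CPM in MPC-11 libraries, against 6.30 and 1.63 CPM in splenic libraries (log2 fold change 4.29). Of the translation factors and their partners 9 of 21 rose and 0 fell, beside the same shares of all genes, among them Npm1, the nucleolar chaperone nucleophosmin, with 258 and 250 CPM in MPC-11 libraries, against 13.5 and 18.2 CPM in splenic libraries (4.01, adjusted p 0.000920 in edgeR). Of the mitochondrial ribosomal proteins 11 of 78 rose and 0 fell, close to the 12% of all genes called higher. Among ribosomal proteins with other symbols, Rack1, a scaffold on the small subunit, rose to 1229 and 599 CPM in MPC-11 libraries, against 99.4 and 114 CPM in splenic libraries (3.097, adjusted p 0.00581 in edgeR). Fau, a fusion of a ubiquitin-like protein with a small-subunit protein, did not pass (1.08, adjusted p 0.227 in edgeR). Myc, a transcription factor that drives ribosome biogenesis and was listed with the mTOR axis, had 727 and 1846 CPM in MPC-11 libraries, against 8.90 and 7.99 CPM in splenic libraries (7.25).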

How the data were processed

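Gene counts, unnormalized, were deposited in one table per species, and log2 FPKM values, whose offset no label gives, were deposited by the authors for each library. Tools named in the submitters' processing notes are Subread 1.6.0, featureCounts and limma, with builds mm10 and hg38; the annotation and the handling of reads that match several places are not given in the sources used here. The flox/+ count columns share a name and are called a and b. Per the labels, libraries were made with a Nextera kit.

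Members and gene lists were chosen with earlier results of these data known. Counts were fitted with edgeR 4.0.16 in R 4.3.3 for each comparison on its own 4 libraries, with TMM scaling, filterByExpr (minimum count 10) and the quasi-likelihood test; p-values were adjusted over all tested genes (Benjamini-Hochberg, threshold 0.05). DESeq2 1.42.0 and limma 3.58.1 (trend, log2 FPKM) were alternatives. CPM were scaled within a comparison, or over all mouse libraries for Irf4, marker sums and single libraries, and over all human libraries for IRF4. Named members were those called, the 5 highest and 5 lowest fold changes without overlap between groups (for single libraries, ratios), the 5 highest levels per group and genes of known role; others were picked after their values were seen. Shared 50-base words were counted over GENCODE M21 transcripts, and human positions are not given. The fit was checked on simulated counts. A few members and listed genes are not reported here by name.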

Additional observations from a re-analysis of the deposited data

Results flagged for a closer look

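Of the core genes measured in both species, 3 lay to one side in both libraries of a mouse model and to the opposite side in both libraries of MM.1S. Rpl3 had a log2 fold change of -0.44 in MPC-11 (guide over empty vector), while RPL3 had 0.41 in MM.1S, and neither comparison's groups overlapped. Rpl15, a large-subunit protein, had -0.48 in splenic plasma cells (flox/- over flox/+), while RPL15 had 0.30 in MM.1S. Rps3 had -0.21 in splenic plasma cells, while RPS3 had 0.36 in MM.1S. By library size alone the splenic values turned to 0.41 for Rpl15 and 0.67 for Rps3, and on log2 FPKM the splenic libraries overlapped for Rps3. The difference was not tested for any of the 3 genes, and none of the 6 values passed edgeR's adjusted threshold. Between the mouse models, Rpl31 (0.78 in splenic plasma cells, -0.54 in MPC-11) and Rpl3 (0.54 in splenic plasma cells, -0.44 in MPC-11) also lay on opposite sides. There the difference was tested with edgeR and did not pass (adjusted p 0.9999 for both). On log2 FPKM the splenic libraries overlapped for Rpl31 and Rpl3.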

How the results depend on the processing

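In the splenic comparison, library size alone put the members' median at 0.97, beside 0.98 for all genes, and leaving out immunoglobulin counts put the ratio of shares at 0.971. On log2 FPKM the members' median turned to -0.17, with 22 above 0 and 65 below, beside -0.17 for all genes. In MPC-11, library size alone gave -0.29 for members and -0.18 for all genes. Leaving out each library in turn gave medians of -0.25 to 0.34 in splenic plasma cells, -0.60 to 0.23 in MPC-11 and -0.11 to 0.22 in MM.1S, so the sign of none of these medians is fixed. The MPC-11 median was -0.60 without guide replicate 2, and 0.23 without empty vector replicate 1. In MM.1S, DESeq2 called 1 member, and leaving out libraries gave 0 to 1, the call being RPL13A without empty vector replicate 1 (adjusted p 0.0348 with edgeR).

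For empty vector MPC-11 over flox/+ splenic plasma cells, the count of members called was 75 with library size alone, 44 with DESeq2 and 3 to 19 with a library left out: 3 and 19 without MPC-11 replicates 1 and 2, and 10 and 9 without flox/+ libraries a and b. The median was 3.16 with library size alone and 0.97 to 1.63 with a library left out, and the ratio of shares, 8.33, was 2.72 without immunoglobulin counts. Rps2 turned to 0.0227 with library size alone. For bone marrow plasma cells over follicular B cells the ratio of shares, 0.133, was 0.460 without immunoglobulin counts, 0.132 for core genes and 0.135 with pseudogene entries added. The median was -2.97 with library size alone and -1.001 on log2 FPKM.

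By the labels, same-numbered libraries shared only a number. The correlation of their deviations was -0.11 in MPC-11 and 0.13 in MM.1S, and 2 pairs each cannot settle whether libraries were paired. The flox/+ count columns carry no number, so no correlation is given for the spleen. With the replicate block 0 members were called in MPC-11 (median -0.17) and MM.1S (median 0.07). In MM.1S the block called 208 genes in all, against 1 without it. The block with limma on log2 FPKM called 0 in splenic plasma cells and 31 in MPC-11 over splenic plasma cells. A crossed pairing in MPC-11, chosen after seeing the data, also called 0. Of the alternatives for single genes, 1182 counted as the same, 68 lost and 32 gained the threshold, 58 moved and 1 reversed. For a called gene the same meant the same direction and side of the threshold. For a gene not called it meant staying so with a shift smaller than its SE, whatever the direction. Reversal was counted for called genes only. Members with low counts rest on few reads, such as Rpl39 in flox/+ cells with 7 counts over both libraries.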
